A study of Sus scrofa with 28 samples.

Results

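The median lobe of the left lung was compared between swine that had inhaled the low dose of sulfur mustard vapor and swine that had inhaled air. The comparison used 6 of the 28 arrays of the series, 1 array per animal: 3 median-lobe arrays of the low group (animals 31, 32 and 33, 60 µg/kg) and 3 of the air group (animals 28, 29 and 44). Every animal was a female pig, was anesthetized and intubated and lay supine, and the lobes were taken 12 h after an exposure of 10 min. Air animals went through the same anesthesia and intubation as far as the labels say, so the comparison is of vapor against air in intubated, anesthetized animals and not against untreated ones; strain and age are not stated in the labels. The samples were pieces of whole lobe, a mixture of airway, alveolar, vascular and blood cells, in which a change in the number of cells of a type cannot be told apart from a change in RNA per cell. The series also holds the apical and caudal lobes of these animals and 4 animals given 100 µg/kg (the medium dose), which appear here only for contrast.

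Sulfur mustard is a bifunctional alkylating agent. It forms adducts and cross-links on DNA, depletes glutathione and injures the epithelium of the conducting airways, where loss of epithelium, fibrin casts and inflammation develop over the hours after inhalation. Cells answer DNA alkylation through p53 and its targets, oxidative and electrophilic stress through NRF2, and wounding through the immediate early transcription factors; these pathways, the clotting system, inflammatory mediators and the cell types of the lung guided the choice of gene lists.

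The 6 arrays were alike in brightness and in overall profile. Median signal, in the deposited linear units, lay between 59.45 and 63.99, the highest signal between 3721 and 4938, and the mean correlation of an array with the other 5 between 0.9797 and 0.9862. From here on, gene signals are given after quantile normalization, turned back to a linear scale. Surfactant protein C (SFTPC), the defining product of alveolar type 2 cells, read between 2635 and 3009.9 on the 6 arrays. The alveolar type 1 markers HOPX and CAV1 averaged 2523 and 2354 in air, as the label of lung requires. The club cell marker SCGB1A1 had no probe set under a single symbol. The ratio of 3' to 5' signal in the actin and GAPDH control probe sets, which is higher where RNA is less intact, was lower in the low-dose arrays. As a mean log2 ratio it was 0.732, 0.287 and 0.515 in air animals 28, 29 and 44, and 0.277, 0.285 and 0.016 in low-dose animals 31, 32 and 33, a difference of -0.319 in which the nearest animals of the groups were 0.287 and 0.285 (exact permutation p = 0.1, two-sided, 20 splits, the smallest p that 3 against 3 animals can give). Each control alone overlapped between the groups, with -0.088 for actin (exact permutation p = 0.4, n = 3 per group) and -0.549 for GAPDH (exact permutation p = 0.2). The direction of each of the 64 genes named by rule was the same with this index as a covariate, and the value with it is given for a number of them below. The index did not overlap between the groups, so the covariate fit cannot fully separate RNA integrity from dose. The part of RNA integrity in the values was not tested.

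The low dose left no single transcript of the median lobe past the threshold. Of 23999 probe sets tested with limma, 0 (0%) had a Benjamini-Hochberg adjusted p under 0.05, and the smallest adjusted p was 0.351. At an unadjusted p under 0.05 there were 1663 probe sets (6.93%), of which 741 were higher and 922 lower after the low dose. Differences were small: the median absolute log2 difference was 0.12, 95% of probe sets were within 0.452, and 59 exceeded 1 (38 higher and 21 lower). The median standard error was 0.148. Among the 6765 genes with a symbol, 3470 (51.3%) had a difference above 0 and the median difference was 0.005. An unadjusted p under 0.05 was found in 164 of them higher (2.42%) and in 232 lower (3.43%). The 3 low-dose values lay wholly above the 3 air values in 480 genes (7.1%) and wholly below them in 529 (7.82%). That split depended on scaling, since it became 299 above and 799 below when arrays were centred on their medians. In the medians that follow, these shares and the median of 0.005 are the background for any list of genes. No low minus air difference passed the threshold, so each such value below is a measured difference and not a called change. In the median lobe, limma standard errors and p-values rest on the spread within groups, and the 4 medium-dose animals enter that estimate.

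**Figure D1:**
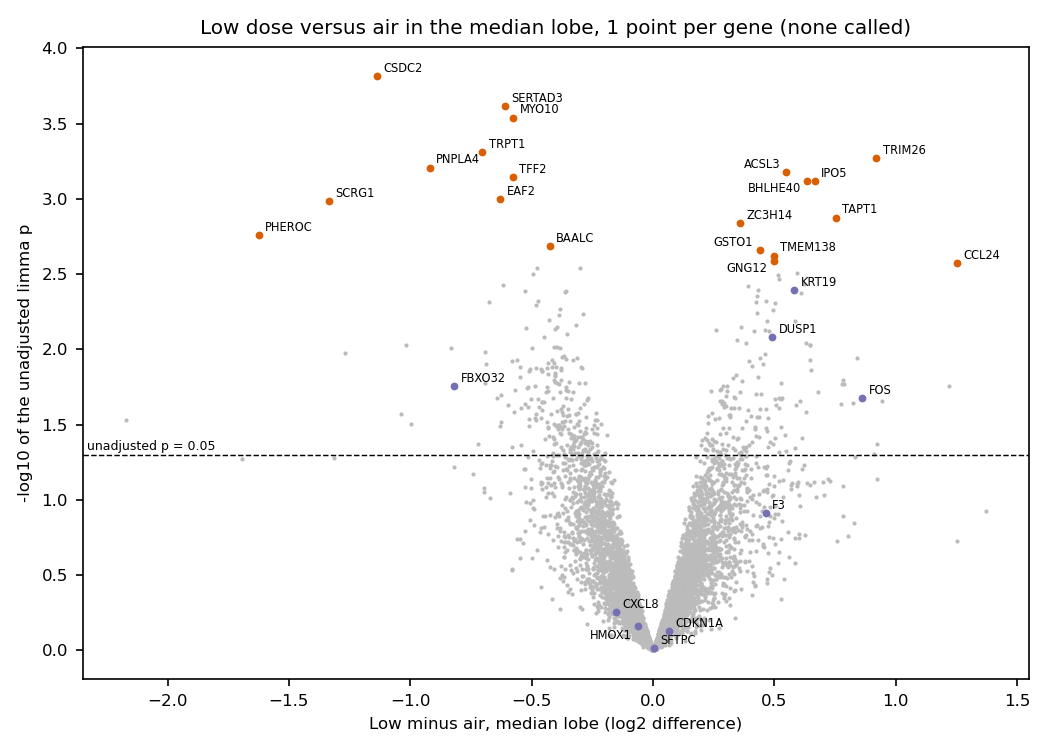
Log2 difference between low-dose and air animals in the median lobe (horizontal axis) against -log10 of the unadjusted limma p (vertical axis), 1 point for each of 6765 genes. Orange points are the 10 higher and 10 lower genes with the smallest p, purple points are 9 of the 11 genes named whatever their p (IL6 and IL1B are not marked), and the dashed line marks an unadjusted p of 0.05; no gene reached an adjusted p under 0.05.

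The probe set with the smallest p carried no gene name in the annotation used. It read 8.79, 2.71 and 12.01 in air animals 28, 29 and 44 and 48.5, 40.5 and 33.1 in low-dose animals 31, 32 and 33, which is the order of animals in all values below. The signal was dim in air and higher in each low-dose animal, with a log2 difference of 1.26 ± 0.16 (standard error, n = 3 per group; limma adjusted p = 0.351), and it differed by 1.04 ± 0.29 in the apical and 1.01 ± 0.17 in the caudal lobe.

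Among named genes, the 10 higher after the low dose with the smallest p were ACSL3, BHLHE40, CCL24, GNG12, GSTO1, IPO5, TAPT1, TMEM138, TRIM26 and ZC3H14. In each, the groups did not overlap, a background share of 7.1% that the choice by small p fixes here. Limma adjusted p lay between 0.591 and 0.672. The widest difference was in CCL24, eotaxin-2, a chemokine that attracts eosinophils and is made by macrophages and epithelium. Its signals were 236, 486 and 207 in air and 629, 839 and 676 in low-dose animals, a difference of 1.25 ± 0.32 (95% confidence interval 0.55 to 1.96). Air animal 29 stood nearer the low-dose animals than the other two, and without it the difference was 1.61. With the RNA integrity covariate the difference was 1.04. TRIM26, a ubiquitin ligase of antiviral signaling, read 14.1, 29.2 and 18.5 in air and 46.04, 54.4 and 56.99 in low-dose animals (0.92 ± 0.18; 0.79 with the covariate). TAPT1, a membrane protein needed for primary cilia, read 171, 127 and 177 in air and 300.1, 261 and 266 in low-dose animals (0.75 ± 0.17; 0.80 with it). Both genes were about as far apart in the apical lobe (0.88 ± 0.17 and 0.88 ± 0.20).

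IPO5, an importin that carries ribosomal proteins and histones into the nucleus, read 171, 151 and 109 in air and 239, 223 and 239 in low-dose animals, a difference of 0.67 ± 0.14 (0.68 with the covariate). BHLHE40, a transcriptional repressor of the circadian and hypoxia programs, read 36.4, 52.1 and 35.8 in air and 62.2, 76.3 and 80.1 in low-dose animals (0.64 ± 0.13), whereas a second, dimmer probe set of the gene differed by -0.24 ± 0.13. ACSL3, which activates long-chain fatty acids for lipid droplets, read 117, 119 and 102 in air and 177, 159.9 and 179.98 in low-dose animals (0.55 ± 0.11). GSTO1, an omega-class glutathione transferase, read 478, 573 and 569 in air and 784, 657 and 772 in low-dose animals (0.44 ± 0.11). In each of these genes every low-dose animal lay above every air animal, which the choice by small p favors. The remaining genes were GNG12, a G protein subunit (32.4 to 51.7 on average, 0.50 ± 0.13), TMEM138, a protein of the ciliary transition zone (44.7 to 69.8, 0.50 ± 0.12), and ZC3H14, a poly(A)-binding zinc finger protein (295 to 382, 0.36 ± 0.08). All 10 also had differences above 0 in the apical and the caudal lobe of the same animals, which share animals with the median lobe and so are not separate replicates.

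The 10 lower genes with the smallest p were BAALC, CSDC2, EAF2, MYO10, PHEROC, PNPLA4, SCRG1, SERTAD3, TFF2 and TRPT1, again without overlap between groups (background 7.82%) and with limma adjusted p from 0.591 to 0.672. CSDC2, a cold-shock domain protein that binds RNA, read 41.3, 37.9 and 34.6 in air and 6.56, 10.7 and 8.42 in low-dose animals, a difference of -1.14 ± 0.19 (95% confidence interval -1.56 to -0.71; -1.09 with the RNA integrity covariate). PHEROC, a subunit of the pig steroid-binding protein pheromaxein, read 103, 35.4 and 92.7 in air and 6.74, 18.1 and 13.3 in low-dose animals (-1.62 ± 0.38; -1.43 with it). Its air values spread widely, with animal 29 at 35.4, and leaving out 1 animal at a time gave -2.01 to -1.40. SCRG1, a secreted protein linked to cartilage formation, read 35.2, 45.3 and 36.5 in air and 0.95, 15.2 and 3.45 in low-dose animals (-1.33 ± 0.29; -1.39 with it); low-dose animal 32 was the highest of its group. These 3 genes were below air in the apical and caudal lobes as well: CSDC2 by -0.90 ± 0.37 and -0.83 ± 0.39, PHEROC by -1.33 ± 0.29 and -1.01 ± 0.79, and SCRG1 by -0.98 ± 0.38 and -0.79 ± 0.64.

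PNPLA4, a lipid hydrolase that can act on retinyl esters, read 27.7, 29.04 and 17.1 in air and 2.38, 7.40 and 6.31 in low-dose animals (-0.92 ± 0.19). TRPT1, a transfer RNA phosphotransferase, read 48.6, 34.04 and 33.5 in air and 15.8, 20.1 and 16.3 in low-dose animals (-0.70 ± 0.14), and was -1.20 ± 0.18 in the caudal lobe. EAF2, a partner of the elongation factor ELL, read 135, 98.2 and 111 in air and 74.4, 67.9 and 62.2 in low-dose animals (-0.63 ± 0.14). Each of these was below air in all 3 lobes. SERTAD3, a transcriptional coactivator of the E2F family, read 208, 203 and 216 in air and 126, 152 and 119 in low-dose animals (-0.61 ± 0.11), while its difference was -0.05 ± 0.20 in the apical and 0.17 ± 0.20 in the caudal lobe. A second SERTAD3 probe set averaged 114 to 97.2 in the median lobe, a smaller difference of -0.20 ± 0.10. MYO10, the myosin of filopodia, averaged 35.1 to 18.3 (-0.58 ± 0.11), and a second, very dim MYO10 probe set differed by 0.04 ± 0.08. TFF2, a trefoil peptide of mucous cells, read 15.8, 15.8 and 17.3 in air and 4.29, 5.88 and 6.86 in low-dose animals (-0.58 ± 0.12) and BAALC averaged 11.04 to 4.13 (-0.42 ± 0.10). PNPLA4, TFF2 and BAALC averaged under a signal of 32 in both groups, as did 1091 of the 6765 genes. The offset of 16 added before taking logs shrinks a difference at low signal. With an offset of 1 the difference was -2.94 for SCRG1, -2.47 for PHEROC, -2.08 for PNPLA4, -2.05 for CSDC2, -1.39 for TFF2 and -1.26 for BAALC, each in the same direction and none of them called.

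**Figure D2:**
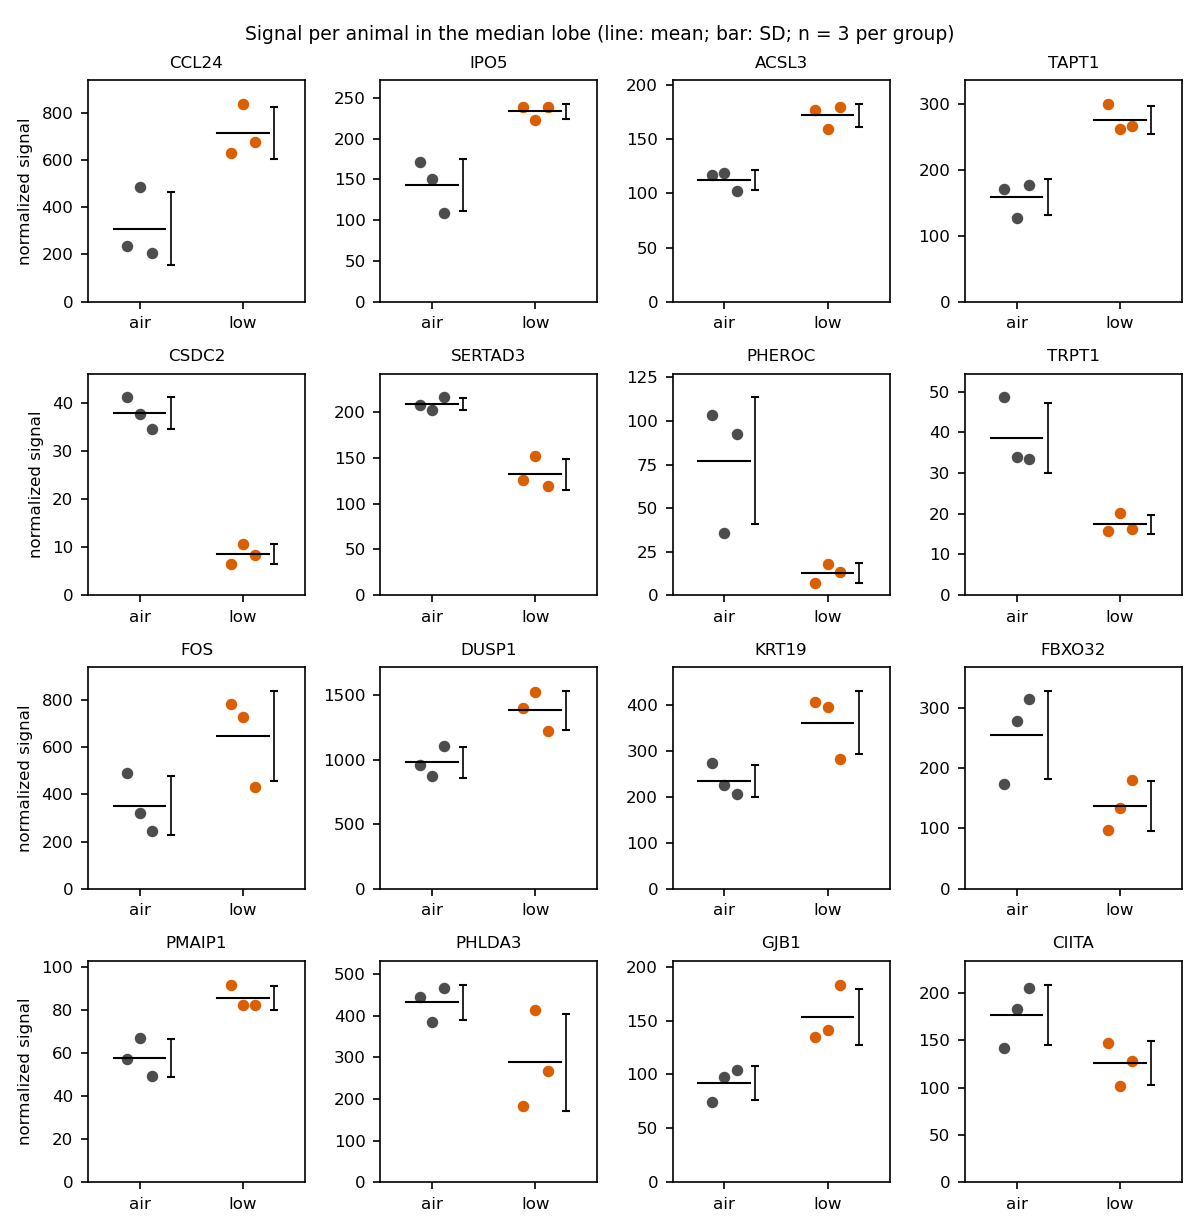
Normalized signal (vertical axes, linear, starting at 0) of 16 genes in each median-lobe array, with air animals in grey and low-dose animals in orange; lines are group means and bars SD, n = 3 per group. The groups are apart in CCL24, CSDC2 and SERTAD3, while FOS and FBXO32 each have an air and a low-dose animal whose values cross.

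Immediate early genes, which are switched on within minutes of growth factor or stress signals, were mostly above 0. Of the 20 listed, 13 were measured and 11 had differences above 0, with a list median of 0.19 (0.14 to 0.21 over the scalings tried); 0 of the 13 passed. FOS, a subunit of the AP-1 transcription factor, read 489, 322 and 244 in air and 785, 729 and 431 in low-dose animals (0.86 ± 0.32; limma adjusted p = 0.711, unadjusted 0.0212; 0.997 with the RNA integrity covariate). Low-dose animal 33 lay below air animal 28, so the groups overlapped. DUSP1, the phosphatase that ends MAP kinase signaling, was bright and separated: 956, 875 and 1107 in air and 1402, 1522 and 1225 in low-dose animals (0.49 ± 0.15; 0.53 with the RNA integrity covariate). EGR1 averaged 414 to 642 (0.59 ± 0.30), KLF4 448 to 586 (0.38 ± 0.18) and JUN 926 to 1065 (0.25 ± 0.19), whereas ATF3 (0.04 ± 0.27), IER3 (0.04 ± 0.21) and ZFP36 (-0.05 ± 0.25) were near 0. With 1 animal left out at a time the list median ran from 0.05 to 0.28. Groups were separate above air in 1 of the 13 members, near the 7.1% of all genes, and in 0 with median-centred arrays.

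The glucocorticoid responsive genes share DUSP1 with that list. Differences above 0 were found in 8 of 12 (list median 0.12), but the standard errors were large: KLF9 averaged 449 to 625 (0.47 ± 0.49), FKBP5 110.4 to 146 (0.34 ± 0.64) and PER1, a clock gene, 327 to 315 (-0.10 ± 0.44). Even so, the KLF9 groups did not overlap. With DUSP1 that made 2 of the 12 separate above air, beside 7.1% of all genes. Without air animal 44 the list median was -0.05.

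Genes activated by p53, the transcription factor that responds to DNA damage, were mixed. Above 0 were 11 of 18, with a list median of 0.06, and 0 passed. CDKN1A, the p21 inhibitor of the cell cycle and the usual readout of p53, read 197, 152 and 138 in air and 184, 158 and 165 in low-dose animals (0.07 ± 0.20; -0.03 to 0.20 when 1 animal was left out). In contrast, PMAIP1 (NOXA), a BH3-only initiator of apoptosis, read 57.3, 67.01 and 49.4 in air and 91.9, 82.5 and 82.4 in low-dose animals (0.46 ± 0.18; 0.40 with the RNA integrity covariate), without overlap. BTG2, an antiproliferative target, averaged 291 to 450.1 (0.63 ± 0.24), and the stress genes GADD45B and GADD45A 153 to 235 (0.57 ± 0.30) and 241 to 326 (0.39 ± 0.33), also without overlap. Lower without overlap was FDXR, a mitochondrial electron donor, at 41.7 to 29.6 on average (-0.34 ± 0.17). Groups were thus separate above air in 4 of the 18 and below it in 1, beside 7.1% and 7.82% of all genes. PHLDA3, an inhibitor of AKT, was also lower at 445, 386 and 467 in air and 185, 413 and 266 in low-dose animals (-0.63 ± 0.23), and low-dose animal 32 stayed within the air range. BAX, DDB2, XPC, ZMAT3 and TP53I3 differed by -0.06 to 0.06.

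DNA repair genes centred on 0, with a list median of 0.02 and 11 of 18 above 0. The alkyltransferase MGMT averaged 269 to 253 (-0.08 ± 0.11). In base excision repair, POLB averaged 95.7 to 129.9 (0.39 ± 0.25) and APEX1 310.5 to 358 (0.19 ± 0.09), both without overlap. The Fanconi anemia genes, whose products unhook DNA cross-links, differed in direction: FANCG 160.5 to 119 (-0.40 ± 0.19, without overlap), FANCA 66.6 to 47.5 (-0.39 ± 0.23) and FANCD2 62.9 to 68.3 (0.09 ± 0.13). Groups were separate above air in 2 of the 18 repair genes and below it in 1, beside 7.1% and 7.82% of all genes. Of the cell cycle and mitosis genes, 16 of 24 lay below 0 (median -0.08). KIF20A, a kinesin of cytokinesis, read 14.1, 15.4 and 13.5 in air and 3.79, 10.4 and 3.09 in low-dose animals (-0.49 ± 0.13), and AURKA, the mitotic kinase, 71.7, 67.5 and 66.1 in air and 61.1, 54.7 and 46.5 in low-dose animals (-0.27 ± 0.10), though a second AURKA probe set differed by 0.22 ± 0.16. On the other side, TYMS, thymidylate synthase, had the widest difference of the list and read 34.8, 52.7 and 26.4 in air and 99.7, 66.3 and 71.1 in low-dose animals (0.83 ± 0.52), without overlap, and CCNA2 averaged 22 to 31.9 (0.33 ± 0.22) and MCM4 26.8 to 36.9 (0.30 ± 0.22). Groups were separate above air in 1 of the 24 and below it in 2. The median of this list reached 0.05 when 1 animal was left out.

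NRF2 targets, the genes of the electrophile and oxidant response, showed no common shift, with 11 of 16 above 0 and a list median of 0.04, which turned to -0.03 with median-centred arrays. HMOX1, heme oxygenase, read 946, 742 and 1003 in air and 891, 696 and 996 in low-dose animals (-0.06 ± 0.15). NQO1, a quinone reductase, averaged 344 to 263 (-0.31 ± 0.29). The enzymes that limit glutathione synthesis were at -0.06 ± 0.13 for GCLC and 0.31 ± 0.17 for GCLM, and GSTA1, an alpha-class glutathione transferase, averaged 49.4 to 83.1 (0.78 ± 0.40). Antioxidant enzymes were above 0 in 7 of 15 (median -0.03). SOD3, the extracellular superoxide dismutase, read 39.05, 26.2 and 35.5 in air and 16.9, 13.8 and 25.9 in low-dose animals (-0.51 ± 0.19; -0.62 with the RNA integrity covariate), without overlap. GPX3, the secreted glutathione peroxidase, was as far apart the other way, at 666, 876 and 707 in air and 962, 925 and 1379 in low-dose animals (0.52 ± 0.43), also without overlap. Of the 15, groups were thus separate above air in 1 and below it in 1, beside 7.1% and 7.82% of all genes. SOD1 (-0.06 ± 0.10), CAT (-0.05 ± 0.10) and GPX1 (-0.06 ± 0.10) were near 0.

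Metabolic and protein stress lists had small differences. Amino acid response genes of ATF4 were above 0 in 15 of 17, with a median of 0.19 (0.14 to 0.20 over the scalings): asparagine synthetase ASNS averaged 169 to 227 (0.39 ± 0.20) and the ATF4 partner CEBPG 83 to 109.7 (0.34 ± 0.15), while ATF4 itself (0.03 ± 0.12) and DDIT3 (-0.14 ± 0.18) did not follow. Sterol synthesis genes were above 0 in 8 of 10 (median 0.24, 0.20 to 0.26 over the scalings, 0.10 without low-dose animal 31). INSIG1, which retains the sterol sensor in the endoplasmic reticulum, read 812, 742 and 639 in air and 965, 890.4 and 1008 in low-dose animals (0.38 ± 0.12). A second, dimmer INSIG1 probe set read 36.5, 53.7 and 23.7 in air and 128, 71.8 and 112 in low-dose animals (1.16 ± 0.36), the same way. FDPS averaged 301 to 414 (0.43 ± 0.27) and HMGCS1 309.9 to 403 (0.36 ± 0.23), whereas the regulator SREBF2 averaged 291 to 241 (-0.28 ± 0.18). Chaperones of the endoplasmic reticulum were above 0 in 13 of 15 (median 0.11), the exceptions being HSP90B1 (-0.02 ± 0.10) and PDIA4 (-0.27 ± 0.12). The other PDIA4 probe sets, however, differed by 0.92 ± 0.39 and 0.21 ± 0.15. Cytosolic heat shock genes were below 0 in 12 of 15 (median -0.07), HSP90AB1 averaging 2167 to 1919 (-0.17 ± 0.09). Ribosome assembly, oxidative phosphorylation, and hypoxia and glycolysis genes had medians of 0.03, 0.05 and 0.003, each of which changed sign with median-centred arrays.

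Inflammatory transcripts had no common direction at 12 h. Cytokines and chemokines were above 0 in 14 of 26 (list median 0.03, -0.01 to 0.04 over the scalings) and 0 passed. CCL24 was not in this list. Groups were separate below air in 3 of the 26 (CCL3L1, CXCL14 and TGFB1) and above it in 1 (IL18). Over all genes, 7.82% were separate below air and 7.1% above. CXCL8 (interleukin 8), the main neutrophil chemokine, read 62.04, 45.4 and 39.6 in air and 35.3, 35.3 and 57.5 in low-dose animals (-0.15 ± 0.25; 95% confidence interval -0.72 to 0.41). IL6 read 21.5, 12.1 and 19.4 in air and 33.3, 13.5 and 21.4 in low-dose animals (0.18 ± 0.41) and IL1B 85.7, 49.5 and 75.5 in air and 65.7, 60.7 and 62.97 in low-dose animals (-0.10 ± 0.18), with broad overlap in both. A second, dimmer IL1B probe set differed by 0.13 ± 0.28. TNF averaged 48.7 to 38.9 (-0.21 ± 0.18) and the monocyte chemokine CCL2 479.7 to 623 (0.46 ± 0.34). Genes of the feedback loop of NF-kB were below 0 in 6 of 7, with NFKBIA at -0.08 ± 0.19. Neutrophil markers had a median of 0.002 with 5 of 9 above 0, and their summed signal was 2391 to 3138 in air and 2614 to 2830.4 in low-dose animals; S100A9 averaged 1369.8 to 1479 (0.12 ± 0.14). Interferon-stimulated genes were above 0 in 16 of 22 (median 0.13, 0.01 without air animal 44), but none of the 22 had separate groups. OAS1, for example, averaged 208 to 446 with a difference of 1.25 ± 0.89.

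In the clotting system, F3 (tissue factor), the membrane receptor that starts coagulation, read 660.1, 499.9 and 313 in air and 688, 884 and 460.03 in low-dose animals (0.47 ± 0.28; limma adjusted p = 0.731; 0.59 with the RNA integrity covariate). The SD on the log2 scale was 0.525 in air and 0.464 in low-dose animals, about as wide as the difference. Leaving out 1 animal gave 0.18 to 0.71 for F3. Its inhibitor TFPI was dim (16.3 to 16.4 on average, 0.001 ± 0.09), TFPI2 averaged 220.1 to 314 (0.45 ± 0.24), and the protein C receptor PROCR 119 to 174 (0.45 ± 0.26). Plasminogen activators differed in direction, PLAT averaging 161 to 258 (0.60 ± 0.30) and PLAU 239.7 to 219.7 (-0.10 ± 0.20), and von Willebrand factor VWF averaged 651 to 519 (-0.34 ± 0.21). Coagulation and fibrinolysis genes together were above 0 in 14 of 20 (median 0.08). Epithelial growth factor and wound genes, among them HBEGF (0.11 ± 0.13), TNFRSF12A (0.07 ± 0.28) and ANKRD1 (0.02 ± 0.68), had a median of 0.03, which was 0.23 without low-dose animal 33. FBXO32, a ubiquitin ligase of muscle wasting that is also expressed in lung, read 174, 277 and 314 in air and 97.4, 134 and 181 in low-dose animals (-0.82 ± 0.29; -0.82 with the RNA integrity covariate). Low-dose animal 33 lay just above air animal 28. A second FBXO32 probe set differed by -0.58 ± 0.32.

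Epithelial keratin genes had the highest list median. The 3 measured keratins of simple epithelium were all higher in every low-dose animal than in any air animal, with a list median of 0.37. Over all genes, 7.1% were separate in that way. KRT19, found in airway epithelium, read 273, 225 and 205 in air and 406, 395 and 282 in low-dose animals (0.58 ± 0.16; 0.65 with the RNA integrity covariate). KRT18 averaged 215 to 284 (0.37 ± 0.21) and its partner KRT8 673 to 755 (0.16 ± 0.17). The separation depended on the scaling: 1 of 3 keratins had separate groups in the deposited scaling and 0 of 3 with median-centred arrays, although the list median stayed between 0.31 and 0.40. Ciliated cell markers were above 0 in 7 of 8 (median 0.23, 0.23 to 0.35 over the scalings). Groups were separate above air in 4 of 8, beside 7.1% of all genes. That count was the same under the deposited scaling and with median-centred arrays. ROPN1L, a protein of the ciliary axoneme, read 350.4, 369.96 and 297 in air and 432, 465 and 485 in low-dose animals (0.43 ± 0.17). SPA17 averaged 102 to 146 (0.44 ± 0.27) and the tubulin TUBB4B 615 to 874 (0.50 ± 0.27). TPPP3, also bright, averaged 559 to 524 (-0.06 ± 0.18). The summed signal of the 8 markers measured, of 25 listed, was 1739 to 2071 in air and 2281 to 2496 in low-dose animals. Bright members such as TUBB4B weigh most in that sum. Airway secretory genes were above 0 in 5 of 9 (median 0.07); SLPI, a protease inhibitor, averaged 2014 to 1761 (-0.21 ± 0.16) and BPIFA1 282 to 395 (0.07 ± 0.68). The share of airway in each piece of lobe was not measured, and its part in these values was not tested.

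Alveolar type 2 markers were above 0 in 6 of 8 (median 0.16, 0.10 to 0.27 with 1 animal left out), led by surfactant protein B (SFTPB) at 365, 648 and 559.95 in air and 1123, 856 and 981 in low-dose animals (0.92 ± 0.46; limma adjusted p = 0.711). SFTPC read 2844, 2635 and 3009.9 in air and 3009.9, 2794 and 2705 in low-dose animals, a difference of 0.004 ± 0.09 that was -0.11 in the deposited scaling, and SFTPA1 averaged 1627 to 2018 (0.33 ± 0.31). Alveolar type 1 markers had a median of -0.02. GPRC5A in that list read 1356, 1349 and 1262 in air and 1058, 1075 and 1114 in low-dose animals (-0.28 ± 0.11), but its other probe sets differed by 0.82 ± 0.38 and 0.09 ± 0.15, so its direction was not settled. Tight junction and claudin genes were above 0 in 9 of 11 (median 0.04, -0.02 with median-centred arrays). CLDN14 read 1.06, 3.64 and 5.05 in air and 16.6, 8.0 and 14.9 in low-dose animals (0.59 ± 0.15), near the bottom of the scale, where an offset of 1 gave 1.81, and CLDN4, a claudin of airway and injured alveolar epithelium, averaged 228 to 275 (0.26 ± 0.19).

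MHC class II and dendritic cell genes were above 0 in 12 of 15 (median 0.15, 0.09 to 0.16 over the scalings), and their summed signal was 11049.6 to 12364 in air and 13212 to 13934 in low-dose animals. SLA-DRA, the alpha chain of the DR molecule, averaged 2015 to 2479 (0.30 ± 0.21) and SLA-DRB1 1892 to 2252 (0.25 ± 0.17). Groups were separate above air in 5 of 15, beside 7.1% of all genes. That count was 3 in the deposited scaling and 2 with median-centred arrays. CIITA, the master activator of these genes, lay the other way at 142, 183 and 205 in air and 147, 102 and 128 in low-dose animals (-0.44 ± 0.16), as did CD83 (-0.21 ± 0.16) and CCR7 (-0.21 ± 0.21), markers of mature dendritic cells. Macrophage and monocyte markers were above 0 in 14 of 20. Their median of 0.16 was 0.05 without low-dose animal 33, 0.05 without low-dose animal 31, 0.05 without air animal 44 and 0.07 without air animal 28, and 0.04 over the brighter probe sets. FABP5, a lipid carrier abundant in alveolar macrophages, read 1208, 1567 and 1229 in air and 1994, 1586 and 1947 in low-dose animals (0.46 ± 0.15; 0.36 with the RNA integrity covariate), and a second probe set differed by 0.36 ± 0.16. Galectin 3 (LGALS3) averaged 1884 to 2426 (0.38 ± 0.17) and CD14 47.1 to 94.4 (0.78 ± 0.47), while the lysosomal proteases CTSB (-0.004 ± 0.08) and CTSS (-0.02 ± 0.08) and the complement gene C1QC (0.04 ± 0.12) were level, and CHI3L1 averaged 1626 to 1381 (-0.24 ± 0.17) and CTSD 1896 to 1736 (-0.13 ± 0.14). The summed signal of the macrophage list overlapped, at 21831 to 24662 in air and 22929 to 25218 in low-dose animals.

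B and plasma cell markers, of which 4 of 19 were measured, had the lowest median of all lists, -0.27 (-0.34 to -0.26 over the scalings). CD79B, the signaling chain of the B cell receptor, read 74.9, 52.05 and 50.6 in air and 37.3, 40.5 and 41.97 in low-dose animals (-0.41 ± 0.17). JCHAIN, which joins secreted immunoglobulins, averaged 1746 to 1547 (-0.17 ± 0.09). Both genes had separate groups, beside 7.82% of all genes lower without overlap. The summed signal of the 4 was 2023 to 2201 in air and 1867 to 1978 in low-dose animals. T and NK cell markers centred on 0 (median 0.01, 11 of 17 above 0): CD3E averaged 318 to 308 (-0.05 ± 0.17) and CD8A 289.6 to 295 (0.01 ± 0.27). The pore-forming PRF1 read 7.84, 10.01 and 5.41 in air and 19.5, 25.5 and 16.04 in low-dose animals (0.61 ± 0.17), a dim probe set, against GNLY at 579 to 421 (-0.50 ± 0.40). A second, dimmer PRF1 probe set differed by -0.04 ± 0.08. Mast cell markers had a median of 0.04 over 4 genes.

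Vessel and stroma markers had medians of -0.03 for endothelial, 0.07 for smooth muscle and 0.07 for fibroblast markers. The VEGF receptors FLT1 (27.1, 35.3 and 33.2 in air and 45.9, 46.6 and 51.6 in low-dose animals; 0.42 ± 0.15) and KDR (11.3 to 18.99 on average, 0.36 ± 0.13) were separate above air but dim. Further probe sets of both genes, also dim, overlapped between groups, at 0.08 ± 0.10 and 0.11 ± 0.33 for FLT1 and -0.18 ± 0.24 for KDR. Of the 13 endothelial markers, 9 were below 0, and RAMP2 (1659 to 1479, -0.17 ± 0.11), PECAM1 (1653 to 1582, -0.06 ± 0.09) and VWF were lower without overlap, while CDH5 (-0.03 ± 0.09) and CLDN5 (0.03 ± 0.10), also bright, overlapped. Over all genes, 7.1% were separate above air and 7.82% below. Among matrix genes (median 0.02), COL1A2, a chain of type I collagen, read 150.3, 258 and 175 in air and 259, 317 and 323 in low-dose animals (0.61 ± 0.26; 0.44 with the RNA integrity covariate). A second, dim COL1A2 probe set differed by -0.18 ± 0.28. MFAP5, a microfibril protein, averaged 325 to 405 (0.30 ± 0.11) and osteopontin SPP1 354 to 541 (0.67 ± 0.34). In the vasoactive list (median 0.01), the adrenomedullin receptor CALCRL averaged 69.9 to 96.5 (0.39 ± 0.15), and PTGS1, cyclooxygenase 1, 608 to 477 (-0.34 ± 0.12), with its second probe set at 0.52 ± 0.36. Leukocyte adhesion genes had a median of 0.06. Markers of tissue outside the lung wall had small differences: striated and heart muscle genes had a median of -0.01, erythroid genes -0.13, mesothelial markers 0.02 and cartilage markers -0.12. The defining cartilage gene SOX9 averaged 1.29 to 0.94, while COL2A1 read 51.9, 65.7 and 68.8 in air and 44.9, 48.5 and 39.9 in low-dose animals (-0.37 ± 0.12), and the summed signal of the 6 cartilage markers was 114 to 180.4 in air and 114 to 123 in low-dose animals. A second, dim COL2A1 probe set differed by -0.01 ± 0.09. ACAN, the cartilage proteoglycan, was at -0.35 ± 0.21 and HAPLN1 at -0.21 ± 0.24, whereas COL11A1 (0.27 ± 0.14) and COMP (0.20 ± 0.19), both dim, were above 0. The amount of airway cartilage in the pieces was not tested.

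**Figure D3:**
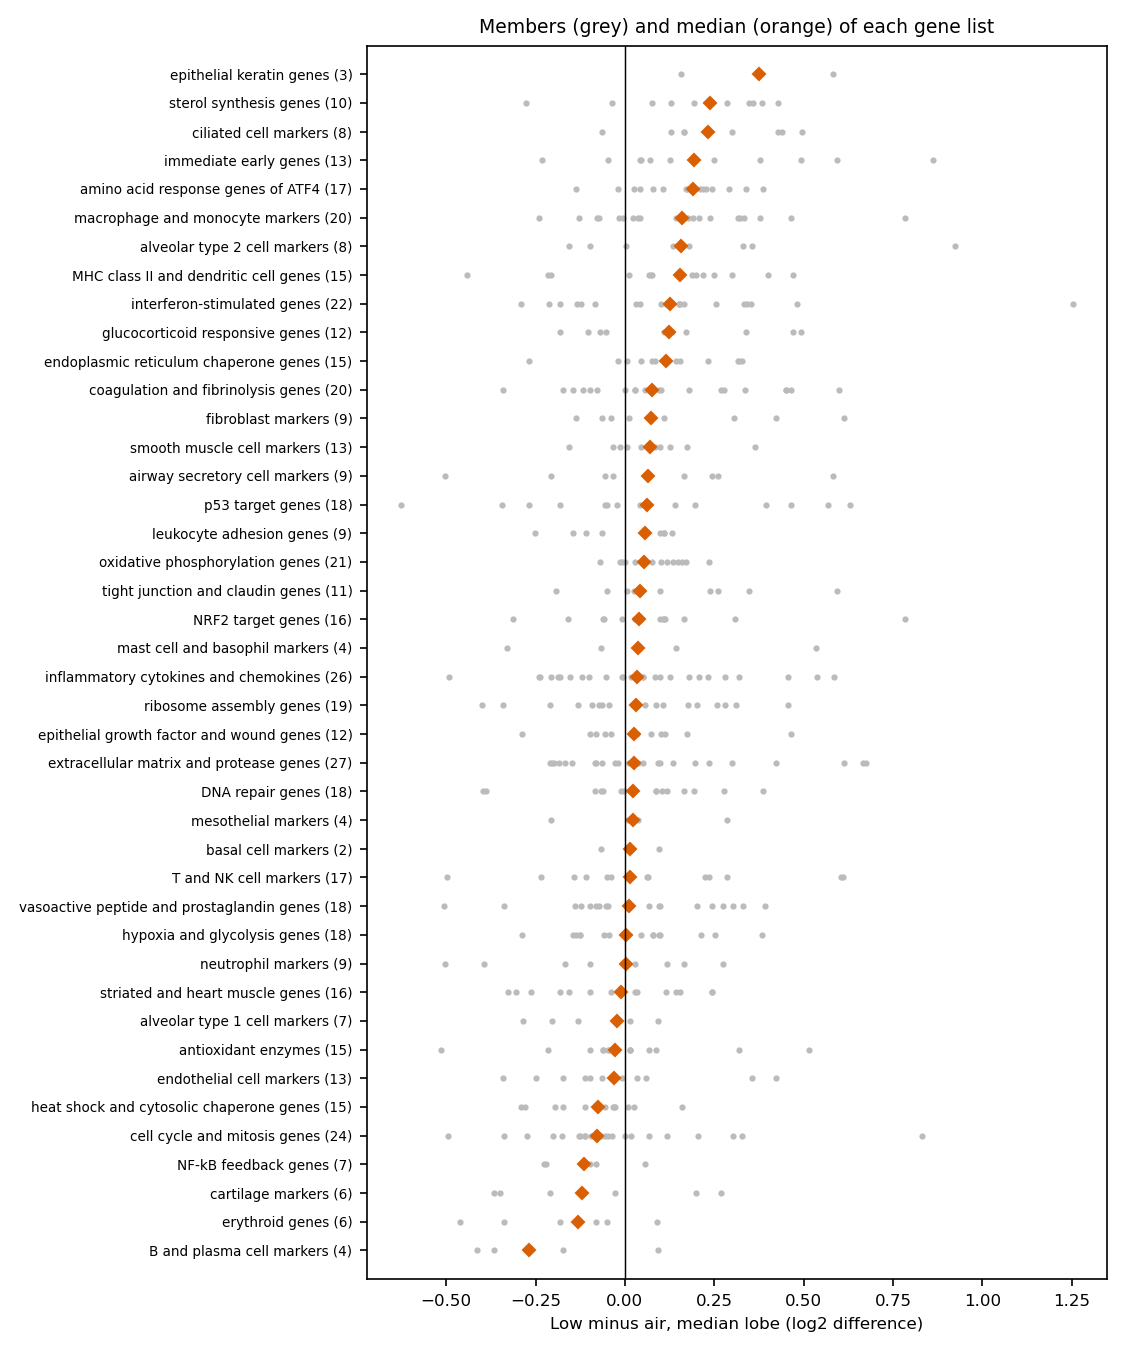
Log2 difference between low-dose and air animals in the median lobe for each measured member (grey) of 42 gene lists, with the list median (orange diamond) and the number of measured members in parentheses. Medians run from -0.27 in B and plasma cell markers to 0.37 in epithelial keratin genes, around a median of 0.005 over all genes.

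Whether the median lobe answered differently from the apical and caudal lobes was tested within animals. The contrast was the low minus air difference in the median lobe less the mean of that difference in the other 2 lobes, with the animal as a block over all 28 arrays. By limma 0 of 23999 probe sets (0%) passed, with 615 (2.56%) at an unadjusted p under 0.05 and a smallest adjusted p of 1. The low dose also called 0 probe sets (0%) in the apical and 0 (0%) in the caudal lobe, where the median absolute difference was 0.122 and 0.117, against 0.12 in the median lobe. Genes named for the smallest p in this contrast were GJB1, FABP7, LMO3 and MRPL52, relatively higher in the median lobe, and CHRNA1, EGLN2, ENAM and VSNL1, relatively lower. GJB1, a gap junction connexin of secretory epithelium, read 74.04, 97.4 and 105 in air and 135, 141 and 183 in low-dose animals in the median lobe (0.65 ± 0.20), with -0.19 ± 0.21 in the apical and -0.21 ± 0.24 in the caudal lobe, a contrast of 0.85 ± 0.20. EGLN2, an oxygen-sensing prolyl hydroxylase, read 299.5, 270.5 and 286 in air and 206, 219.5 and 178 in low-dose animals (-0.48 ± 0.12), against 0.13 ± 0.23 and 0.18 ± 0.25 (-0.63 ± 0.18). CHRNA1, a subunit of the muscle acetylcholine receptor, read 40.6, 60.3 and 40.8 in air and 24.6, 38.1 and 25.9 in low-dose animals (-0.47 ± 0.18; contrast -0.59 ± 0.18). None of the 8 had the same direction in all 3 lobes, a pattern that choosing them by this contrast favors.

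Several genes of the lists had wider low-dose differences in another lobe, without a test past the threshold. F3 was 1.13 ± 0.30 in the caudal lobe against 0.47 ± 0.28 in the median lobe, and the within-animal contrast for it was -0.29 ± 0.36. KRT19 was 0.999 ± 0.12 in the caudal lobe (-0.24 ± 0.15), FOS 1.29 ± 0.40 (-0.13 ± 0.35) and FBXO32 -1.09 ± 0.23 (0.17 ± 0.23). In the median lobe, SERTAD3 (-0.67 ± 0.24), PHLDA3 (-0.54 ± 0.21) and CIITA (-0.61 ± 0.25) were lower relative to the other lobes, and CIITA was 0.34 ± 0.18 in the apical lobe. SERTAD3, PHLDA3 and CIITA were named for a small p in the median lobe. The lobe contrast reuses those median-lobe values, so the choice favors a contrast in the same direction.

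**Figure D4:**
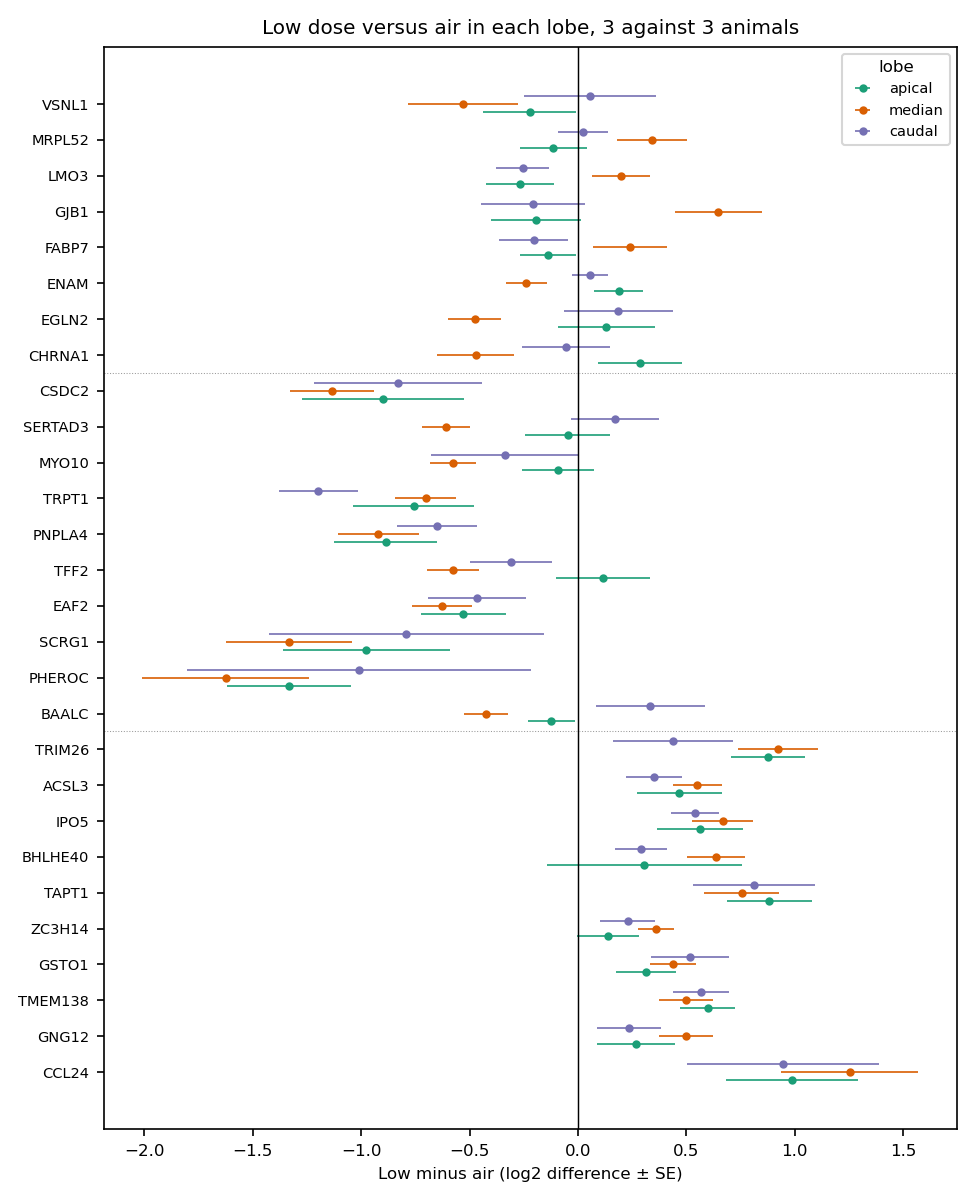
Log2 difference between low-dose and air animals, with bars of 1 standard error (n = 3 per group), in the apical (green), median (orange) and caudal (purple) lobe. The upper block holds the 8 genes named from the contrast between lobes, the middle block the 10 lower and the bottom block the 10 higher genes of the median lobe; the bottom block is above 0 in all 3 lobes.

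Median-lobe values after the medium dose were set beside these. Both doses were compared with the same 3 air animals, so the 2 differences share that group. Medium against air called 97 probe sets (0.404%, 56 higher and 41 lower), with a median absolute difference of 0.157, and medium against low called 5 (0.0208%). The medium minus low difference does not use the air animals, but their spread enters its standard error and p-value. F3 differed from air by 0.47 ± 0.28 after the low and 1.57 ± 0.26 after the medium dose (limma adjusted p = 0.0453), and medium exceeded low by 1.11 ± 0.26 (adjusted p = 0.0797). FOS stood at 0.86 ± 0.32 and 1.499 ± 0.30, DUSP1 at 0.49 ± 0.15 and 0.81 ± 0.14, PMAIP1 at 0.46 ± 0.18 and 1.11 ± 0.17, and FBXO32 at -0.82 ± 0.29 and -1.82 ± 0.27. Of these, DUSP1 (limma adjusted p = 0.0493), PMAIP1 (0.0413) and FBXO32 (0.0413) passed against air after the medium dose and FOS (0.0607) did not. The RNA integrity index of the 4 medium arrays ran from 0.139 to 1.603, the highest in animal 39, and its part in the medium values was not tested. Medium minus low was 0.64 ± 0.30, 0.31 ± 0.14, 0.65 ± 0.17 and -1.004 ± 0.27 for these, none past the threshold. CDKN1A (0.07 ± 0.20 and 0.86 ± 0.18) and CXCL8 (-0.15 ± 0.25 and 0.83 ± 0.24) were near the air level after the low dose, and their medium minus low differences were 0.79 ± 0.18 and 0.99 ± 0.24 (adjusted p = 0.0797 and 0.0827).

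Other genes of the low dose did not have wider differences after the medium dose. CSDC2 was -1.14 ± 0.19 after the low and -0.03 ± 0.18 after the medium dose (medium minus low 1.10 ± 0.18, limma adjusted p = 0.0523), ACSL3 0.55 ± 0.11 and -0.05 ± 0.11 (-0.60 ± 0.11, 0.0617), and TRIM26 0.92 ± 0.18 and 0.07 ± 0.17 (-0.86 ± 0.17, 0.0713). EGLN2 was -0.48 ± 0.12 and 0.24 ± 0.11 (0.71 ± 0.11, 0.0523). CSDC2, ACSL3 and TRIM26 were chosen for a small p in low against air, and EGLN2 from the lobe contrast. Medium minus low reuses those low-dose arrays, so the choice favors wide values of it and cannot show a return toward air. Among lists, immediate early genes had a median of 0.19 after the low and 0.81 after the medium dose, ciliated cell markers 0.23 and -0.24, and MHC class II and dendritic cell genes 0.15 and -0.20.

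**Figure D5:**
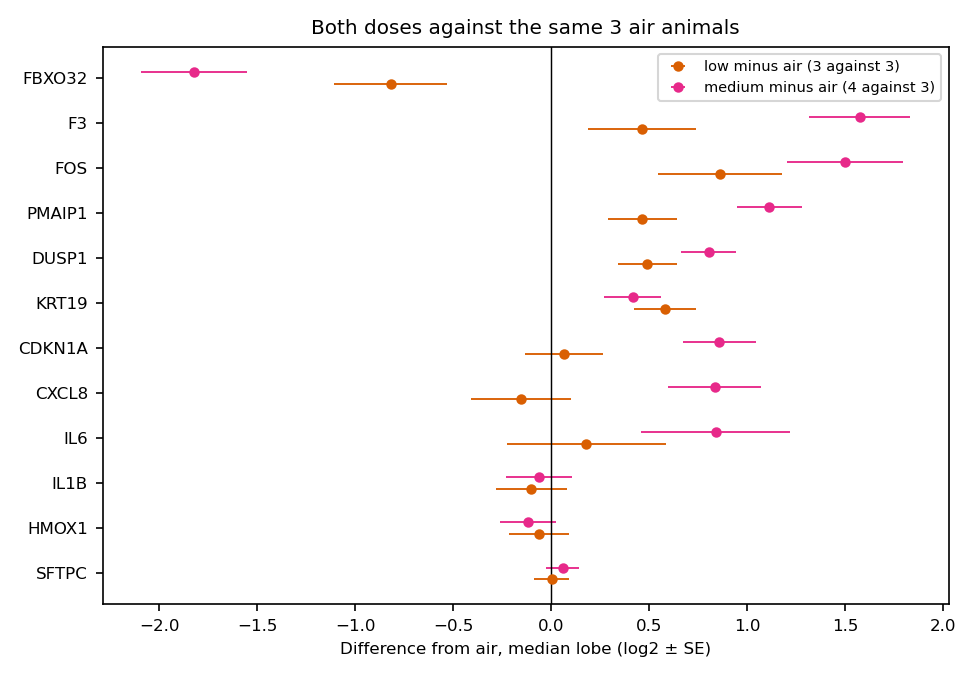
Log2 difference from the same 3 air animals in the median lobe after the low (orange, 3 animals) and the medium dose (pink, 4 animals), with bars of 1 standard error, for 12 genes. F3, FOS, PMAIP1 and FBXO32 are farther from 0 after the medium dose, while IL1B, HMOX1 and SFTPC are near 0 after both.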

How the data were processed

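RNA from 6 median-lobe pieces, 1 per animal, was hybridised to the Affymetrix porcine array. The authors deposited 1 signal intensity per probe set and array on a linear scale; the mean after trimming 2% at each end was 150.02 on each array, and the software and build are not given in the sources used here. Of 24123 probe sets, 124 controls were left out and 23999 tested without a brightness filter. The supplied annotation gave 1 symbol to 10069, several to 198 and did not list 13732; symbols covered 6765 genes, 2261 with more than 1 probe set, of which the brightest over the 28 arrays stood for the gene.

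Signals were taken as log2(signal + 16) and quantile normalized over 28 arrays (lower quartiles spread by up to 0.317). Limma 3.58.1 (R 4.3.3) fitted the 10 median-lobe arrays (3 air, 3 low, 4 medium), so the medium arrays add to the estimate of spread. Benjamini-Hochberg adjustment ran over 23999 probe sets, called under 0.05, two-sided. The lobe contrast was fitted on the 28 arrays, each animal entering as a fixed block. Python 3.11.15 with pandas 2.3.3 and matplotlib 3.10.9 drew the figures. The scripts were tested on simulated data. The number of arrays limits precision.

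The comparison, its members and the 42 gene lists were chosen with earlier results of these data known. Named genes were the 10 with the smallest p in each direction, up to 2 members of each list with unadjusted p under 0.05, 4 in each direction of the lobe contrast, and CXCL8, IL6, IL1B, CDKN1A, HMOX1, SFTPC, F3, FOS, DUSP1, KRT19 and FBXO32; other list members illustrate their list and were chosen after their values were seen. Alternatives were the deposited scaling, median-centred arrays, an offset of 1, brighter probe sets, trend and robust eBayes, the 6 arrays alone, the animal as a random block, the RNA integrity covariate and leaving out each animal; the covariate and the variance model for single genes, the counts of separate groups and the unadjusted counts were added after seeing the data.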

Additional observations from a re-analysis of the deposited data

How the results depend on the processing

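The count of 0 called probe sets in low against air held under every alternative but 2, each giving 1 unnamed probe set: an offset of 1 (-2.147, limma adjusted p = 0.0276) and leaving out air animal 44 (-1.682, adjusted p = 0.0115). Leaving out 1 animal at a time thus gave 0 to 1. Unadjusted counts ran from 946 without low-dose animal 31 to 2688 with the 6 arrays alone, and were 1076 without low-dose animal 33 and 784 of 12000 brighter probe sets. With the animal as a random replicate block over 28 arrays (consensus correlation 0.344) 0 were called, and with the RNA integrity covariate 0, with 1280 unadjusted. The lobe contrast called 0 in each setting, 0 also without the replicate block; air and low animals share no numbers, so no pairing between exposures exists. The RNA index difference of -0.319 was -0.088 for actin and -0.549 for GAPDH alone, and -0.431 to -0.209 with 1 animal left out. Of 870 values of the 64 named genes under alternatives, 861 kept their direction and side of the threshold and 9 reversed: CDKN1A (-0.0327) and HMOX1 (0.0225) without air animal 44, HMOX1 without low-dose animal 32 (0.0807), IL1B without air animal 28 (0.0311), IL6 without low-dose animal 31 (-0.0096), and SFTPC in the deposited scaling (-0.113), median-centred (-0.157), without air animal 29 (-0.0462) or low-dose animal 31 (-0.0394). The cause was not tested. With 1 animal left out these genes ranged over -0.0327 to 0.1997 (CDKN1A), -0.191 to 0.0807 (HMOX1), -0.287 to 0.0311 (IL1B), -0.0096 to 0.36 (IL6) and -0.0462 to 0.0493 (SFTPC). List medians changed sign over the scalings in 16 of 42 lists, and when an animal was left out in 20 of 42, so lists with medians near 0 carry no direction. Median centring moved the median of all probe sets from -0.004 to -0.034. Detection calls were not used here, so dim probe sets have no measured floor.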
